A study of Mus musculus with 15 samples.

Results

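Livers of estradiol-treated (E2) and conjugated estrogen-treated (CE) mice were compared directly, using 6 of the 15 mice of the series. The members were chosen by treatment label alone, 3 mice given E2 and 3 given CE, and the 3 vehicle (Veh) mice are given for context. All were C57BL/6J females from Jackson Laboratory that went on a high-fat diet at 8 weeks of age, were ovariectomized at 10 weeks and were then treated for 6 weeks. The nominal dose was 5 μg per kg per day in the E2 group and 2.5 mg per kg per day in the CE group. E2 came from slow-release pellets and CE from osmotic minipumps, as the study describes, so that compound, dose and route changed together and cannot be told apart. The study gives the hormone content and release period of the pellets separately from the nominal daily dose. Spread evenly over that period, the content would give a mouse far more E2 per day than the nominal dose. What the pellets released was not tested, so the E2 dose relative to that of CE is uncertain and may be well above the nominal one. Ovarian hormones had been removed in all groups, Veh included, and no intact mouse was sequenced. Mice are named by the numbers in their labels, E2 mice 3, 4 and 5 and CE mice 3, 6 and 7.

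Estradiol is the main ovarian estrogen, and conjugated estrogens are a mixture of estrogen sulfates, with estrone and equine forms among them, that tissues convert to active hormone. Both act through estrogen receptors, and in the liver of female mice estrogens lower fat storage and, partly by way of the growth hormone rhythm of the pituitary, maintain female-type expression of enzymes that handle steroids and drugs. Whether E2 and CE left the same mark on liver RNA was the question of the comparison.

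RNA-seq values were deposited for 2545 genes on a log2 scale, with each gene centred on its own median among the 15 mice. A value of 1 is therefore double that median, and values cannot be set against each other between genes. The table is a selection, since the means of at least 1 treatment and Veh lay over 2-fold apart in all 2545 genes, and those of E2 or CE and Veh in 1540. FDRs against Veh within such a table rest on values that the selection used, so they are given for context only. Read depth is not in the table, and in 1045 genes at least 2 mice shared the lowest value, a floor set by the authors' processing. Among the 6 mice CE mouse 3 stood apart. It was the highest of all 15 mice in 313 genes, against 86 to 144 genes for the other 5 E2 and CE mice and 353 for Veh mouse 7, and its median over all genes was 0.12 where that of the other 5 was 0. Of 25 hepatocyte markers, 6 were in the table, with a median difference between E2 and CE of 0.09.

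Only 1 gene passed the test between E2 and CE. A1bg was higher in E2 livers, and no gene passed as higher in CE. The test was limma over all 15 mice with Benjamini-Hochberg adjustment, at a fold change above 2 and a false discovery rate (FDR) under 0.05, and it called 0.0393% of the 2545 genes. At an unadjusted p under 0.05 and the same fold change, 86 genes (3.38%) were higher in E2 and 145 (5.70%) in CE. Without CE mouse 3 these became 109 (4.28%) and 91 (3.58%), and 62 of the 86 and 66 of the 145 were among them. Quantile normalization likewise turned the balance, to 144 higher in E2 and 125 in CE, and moved the median difference of all genes from -0.12 to 0.00. The side with more genes therefore changed with CE mouse 3 and with the scaling. Over all genes 1088 differences were positive and 1416 negative, and their median was 0.00 without CE mouse 3. The counts given for lists and families are to be read beside these values and shares. All 3 E2 mice lay above all 3 CE mice in 141 genes (5.54%), and all 3 CE mice above all 3 E2 mice in 202 (7.94%). Of 89 genes that the naming rule took, the 88 other than A1bg had FDRs from 0.202 to 0.967, and the differences given for them, with SEs, are values that did not pass. By size alone, 199 genes (7.82%) were more than 2-fold higher in E2 and 385 (15.1%) more than 2-fold higher in CE. These were 304 and 281 without CE mouse 3, and 274 and 284 under quantile normalization.

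On average the E2 and CE livers were slightly farther from each other than from mice of their own treatment, though not for every mouse. The root mean square distance over all genes averaged 1.32 between an E2 and a CE mouse and 1.25 between mice of the same treatment, a difference of 0.08. In an exact one-sided permutation test no other of the 10 splits of the 6 mice gave a larger difference (p = 0.1, the smallest these mice allow). CE mouse 3 was the most distant of its group, at 1.41 from the other CE mice, where CE mouse 6 was at 1.27 and CE mouse 7 at 1.24. To the E2 mice, CE mouse 6 was nearer on average, at 1.21, than to the other CE mice, and CE mouse 7, at 1.25, was about as near. Their averages to the other CE mice include the distant CE mouse 3, so they do not show how near CE mice 6 and 7 were to each other. Without CE mouse 3 the distance averaged 1.23 between treatments and 1.17 within them. Between E2 mice the distance was 1.19.

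The clearest difference lay in A1bg, which encodes a secreted plasma glycoprotein of the immunoglobulin superfamily and is expressed more in female than in male mouse liver. Its log2 values were 4.03, 4.59 and 4.91 in the E2 mice 3, 4 and 5 and 0.00, 0.77 and 1.51 in the CE mice 3, 6 and 7. In the Veh mice 1, 4 and 7 they were 1.48, -0.05 and 0.73. Every E2 mouse was far above every CE mouse, while the CE and Veh mice covered the same range. Group means were 4.51 ± 0.45 in E2 and 0.76 ± 0.75 in CE (SD, n = 3 each). The difference of 3.75 ± 0.60 (log2, SE), or 13.4-fold, had an FDR of 0.0241 by limma. Without CE mouse 3 the difference was 3.37 and its FDR 0.309, so that the call, though not the separation of the mice, rested on that library. The same held for each of E2 mice 3, 4 and 5 and CE mouse 6, with FDRs of 0.0574, 0.0877, 0.126 and 0.155. Over all alternatives tried the FDR lay between 0.00707 and 0.309.

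A1bg lies on the minus strand of chromosome 15, at 60896859 to 60923012 (GRCm38). The 250 bases before its RefSeq start, chr15:60921271-60921520, are shown because A1bg is the single gene that passed. This window lies inside the span just given, which is from GENCODE, so the annotations place the start differently. Capitals mark the only match to TTCNNNGAA, the palindrome bound by STAT5, the factor that carries the growth hormone signal in hepatocytes. The match begins 84 bases before the RefSeq start. This pattern occurred in 7.02% of the same windows of 32851 mouse promoters, so a match is common. The consensus estrogen response element GGTCANNNTGACC, searched on both strands, was not among these letters and occurred in 0.0639% of the windows. The sequence is from RefSeq, read 5′ to 3′ on the strand of the gene.
A1bg: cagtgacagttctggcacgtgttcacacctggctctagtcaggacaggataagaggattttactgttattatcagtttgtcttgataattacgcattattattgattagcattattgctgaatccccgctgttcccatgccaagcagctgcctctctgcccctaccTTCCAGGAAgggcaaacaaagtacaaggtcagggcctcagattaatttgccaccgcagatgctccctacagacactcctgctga

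**Figure D1:**
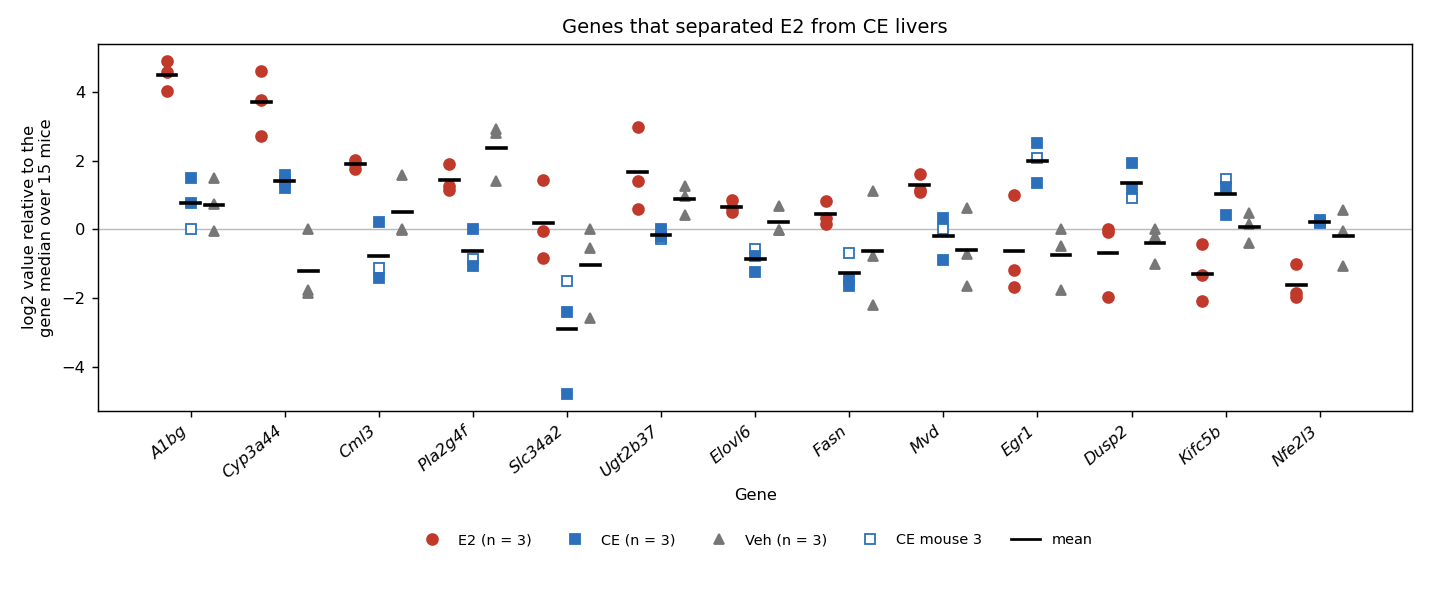
Log2 value relative to the gene's median over 15 mice (y axis) of 13 genes (x axis) in each E2 (red circles), CE (blue squares, CE mouse 3 open) and Veh (grey triangles) mouse, with bars at the means. The 3 E2 values of A1bg, 4.03 to 4.91, lie above all CE and Veh values, and in all 13 genes the E2 and CE mice do not overlap.

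Among female-biased liver genes only A1bg passed, and the median of the list depended on CE mouse 3. Of 48 listed, 27 were in the table, and their median difference was 0.42, where that of all genes was -0.12, with 20 positive and 7 negative. Without CE mouse 3 the median was 0.03. At an unadjusted p under 0.05 and above 2-fold, 3 of the 27 were higher in E2, A1bg, Cyp3a44 and Hao2, and none in CE. The shares over all genes were 3.38% and 5.70%. All 3 E2 mice lay above all 3 CE mice in 6 of the 27 (5.54% of all genes), and the reverse held in 0 (7.94% of all genes). Cyp3a44, a cytochrome P450 of steroid and drug oxidation found mainly in females, was at 2.72, 3.76 and 4.62 in E2 mice 3, 4 and 5, at 1.42, 1.57 and 1.20 in CE mice 3, 6 and 7, and at -1.86, -1.76 and 0.00 in the Veh mice. The groups formed steps without overlap, from Veh to CE to E2. The step from CE to E2 was 2.30 ± 0.65 (FDR 0.387), and it was 2.31 without CE mouse 3. From Veh, the fitted differences were 4.91 for E2 (FDR 0.00231) and 2.60 for CE (FDR 0.146). Both share the Veh mice, and both come from a table selected on distance from Veh. Hao2, a peroxisomal oxidase of hydroxy acids, was another matter, as a value of -5.78 in CE mouse 3 carried it. Its difference of 2.93 became 1.18 without that mouse. Cyp2b13, a female-specific P450, went the other way with a difference of -1.02, which was -1.52 and past the unadjusted p without CE mouse 3. Sult2a1, Sult2a2 and Sult2a5, sulfotransferases of steroids and bile acids, differed by 0.15, 0.07 and 0.07, Sult2a3 by 0.64 and Sult2a4 by -0.04.

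Cyp3a44 has a near copy, Cyp3a41a, on chromosome 5, and reads may have been divided between them. Over 1963 aligned bases their longest transcripts are 95.0% identical. Cyp3a41a was at 0.64, 1.94 and 2.04 in the E2 mice and 0.52, 0.65 and 0.87 in the CE mice, a difference of 0.86 ± 0.59 with overlapping groups. Upstream of their RefSeq starts, compared base by base without gaps, 14 of 250 bases differ between the 2 genes (94.4% identical). Both windows are shown, 5′ to 3′ on the minus strand that carries both genes, chr5:145805875-145806124 for Cyp3a44 and chr5:145720137-145720386 for Cyp3a41a (RefSeq, GRCm38.p6), with the differing bases in capitals. Neither window held TTCNNNGAA or GGTCANNNTGACC.
Cyp3a44: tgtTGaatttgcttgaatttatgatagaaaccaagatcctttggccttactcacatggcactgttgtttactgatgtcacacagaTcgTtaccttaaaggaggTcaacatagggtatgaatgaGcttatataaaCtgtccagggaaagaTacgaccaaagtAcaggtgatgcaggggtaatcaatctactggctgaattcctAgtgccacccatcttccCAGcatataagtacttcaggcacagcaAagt
Cyp3a41a: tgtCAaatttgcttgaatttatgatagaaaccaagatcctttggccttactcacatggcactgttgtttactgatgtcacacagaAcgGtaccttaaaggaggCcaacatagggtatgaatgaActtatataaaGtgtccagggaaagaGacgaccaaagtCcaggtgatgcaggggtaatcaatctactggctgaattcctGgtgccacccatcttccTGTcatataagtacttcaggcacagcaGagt

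Male-biased liver genes were mixed in sign. Of 55 listed, 19 were in the table, 7 positive and 12 negative, with a median of -0.20. Without CE mouse 3 the median was -0.29, where that of all genes was 0.00. Above 2-fold at an unadjusted p under 0.05, 2 were higher in CE (5.70% of all genes), C8a and Nox4. Nox4, an NADPH oxidase that makes hydrogen peroxide, was at -0.93, -0.75 and -1.57 in E2 and -0.33, 0.33 and 0.34 in CE, a difference of -1.20 ± 0.47, and -1.42 without CE mouse 3. C8a, a subunit of the complement attack complex, differed by -1.68 with all mice and -0.95 without CE mouse 3. The major urinary protein genes Mup1, Mup12, Mup15, Mup16 and Mup20, male-biased products of hepatocytes, differed by 0.16 to 0.71.

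In a cluster of N-acetyltransferase-like genes on chromosome 6, 3 near-identical members and Cml5, of the 5 in the table, had higher values in all E2 than in all CE mice. Cml3, Gm4477 and Gm11128 carry the current symbols Nat8f3, Nat8f7 and Nat8f6 and lie between 85706707 and 85809877 (GRCm38.p6). Cml3 was at 1.77, 1.90 and 2.02 in the E2 mice and -1.12, -1.42 and 0.22 in the CE mice, a difference of 2.67 ± 0.66 (FDR 0.24) that was 2.49 without CE mouse 3. Gm4477 differed by 3.17 ± 0.77 (2.44 without CE mouse 3) and Gm11128 by 3.30 ± 0.78 (2.98 without it), and in both the E2 and CE mice were apart. These are not independent, since the transcripts of Nat8f3 and Nat8f7 are 99.4% identical and those of Nat8f3 and Nat8f6 98.5% identical. The Gm4477 and Gm11128 rows fall outside the naming rule and were picked after their values were seen. Of 5 genes of this cluster in the table, 3 were higher in E2 at an unadjusted p under 0.05 and above 2-fold, with and without CE mouse 3. The shares over all genes were 3.38% and 4.28%. Cml5 was at -0.04, -1.09 and -1.48 in the E2 mice and -2.13, -2.13 and -2.02 in CE mice 3, 6 and 7, also without overlap. Its difference of 1.22 did not pass an unadjusted p under 0.05, and 3 mice, 2 of them CE, were at its floor. Nat8 differed by 0.00. Against Veh, Cml3 differed by 1.38 in E2 and by -1.29 in CE, and neither passed.

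A few lipogenic enzymes had higher values in E2 than in CE livers, without passing the FDR. Of 49 listed genes of fatty acid synthesis, uptake and storage, 18 were in the table, 11 were positive and 6 negative, and their median was 0.29 (0.30 without CE mouse 3). Above 2-fold at an unadjusted p under 0.05, 3 of the 18 were higher in E2 (3.38% of all genes) and none in CE (5.70%). They are the enzymes that turn citrate into long-chain fatty acids, Acly, Fasn and Elovl6. Fasn, fatty acid synthase, was at 0.33, 0.17 and 0.82 in the E2 mice and -0.70, -1.46 and -1.66 in the CE mice, a difference of 1.71 ± 0.66 (FDR 0.47). The Veh mice spread from -2.21 to 1.10 and so enclosed both groups. Elovl6, which lengthens palmitate, was at 0.84, 0.50 and 0.62 in E2 and -0.59, -0.76 and -1.25 in CE, a difference of 1.52 ± 0.54. Acly, which supplies cytosolic acetyl-CoA, differed by 1.32 ± 0.62. Without CE mouse 3 the differences of Fasn, Elovl6 and Acly were 2.00, 1.66 and 1.46, all larger than with it, although Acly, with fewer mice in the fit, no longer passed the unadjusted p. Pnpla3, a lipid droplet acyl hydrolase induced with lipogenesis, was at 1.02, 0.76 and 1.38 in E2 and 0.01, 0.05 and -1.59 in CE (difference 1.56, and 1.82 without CE mouse 3). The uptake and storage genes were mixed in sign, and none passed an unadjusted p under 0.05. The fatty acid binding proteins Fabp5 and Fabp2 differed by 1.22 and 0.58, Vldlr, a lipoprotein receptor, by 0.53, G0s2, a lipase inhibitor, by 0.46 and Mogat1 by 0.35. Cd36, the fatty acid translocase, differed by -0.23, Pparg by -0.51 and Plin4, a lipid droplet coat protein, by -0.47.

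The cholesterol pathway gave values of the same sign. Of 45 listed genes, 9 were in the table, 8 positive and 1 negative, with a median of 0.63 (0.59 without CE mouse 3). Mvd and Fdps, consecutive in the route from mevalonate to farnesyl diphosphate but for the isomerase between them, passed an unadjusted p under 0.05. Mvd was at 1.63, 1.08 and 1.16 in E2 and 0.00, 0.32 and -0.90 in CE, a difference of 1.48 ± 0.58 (FDR 0.47) without overlap, and 1.58 without CE mouse 3. Fdps differed by 1.30 ± 0.56, but E2 mouse 4, at 0.38, lay below CE mouse 6, at 0.59, and without CE mouse 3 it did not pass the unadjusted p. Pmvk, the kinase just before Mvd, differed by 0.88. Nsdhl and Tm7sf2, which act after squalene, differed by 0.60 and 0.59, and Cyp7a1, the rate-limiting enzyme of bile acid synthesis, by 0.63.

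Fatty acid oxidation genes depended on 1 mouse. All 14 PPAR-alpha targets in the table, of 41 listed, were positive, with a median of 0.32, yet the median was 0.02 without CE mouse 3. The mean over the list was -1.32 in CE mouse 3 and lay between 0.10 and 0.28 in the other 5 mice. Cyp4a10, an omega-hydroxylase, differed by 0.55 with it and 0.11 without it, and Ehhadh, of the peroxisomal pathway, by 0.03 and -0.29.

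Conjugating enzymes had mostly positive differences. Of 14 UDP-glucuronosyltransferases and sulfotransferases in the table, 12 were positive, with a median of 0.65 (0.51 without CE mouse 3), and 1 passed an unadjusted p under 0.05 above 2-fold. That was Ugt2b37, a glucuronosyltransferase, at 0.61, 1.41 and 2.99 in E2 and -0.27, 0.00 and -0.24 in CE, a difference of 1.84 ± 0.55 (FDR 0.44). The E2 mice were all higher but far from each other. Ugt1a2, Ugt1a5 and Ugt1a10 differed by 1.55, 1.30 and 1.36. They are transcribed from separate first exons onto shared ones, so their reads may overlap. Sult1e1, the estrogen sulfotransferase, differed by -0.35, and the estrogen-handling genes as a list by a median of -0.12 over 8 of 37 genes, with none past an unadjusted p under 0.05. Among glutathione S-transferases, 5 in the table, Gsto2 was higher in E2 by 1.26, although 7 of the 15 mice were at its floor. Estrogen-responsive genes known from other tissues were few, 5 of 20 in the table, and Greb1, Tff1 and Stc2 differed by 0.06, 0.26 and 1.54.

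Other genes higher in E2 came from several classes. Pla2g4f, a cytosolic phospholipase A2, was at 1.26, 1.15 and 1.91 in E2, at -0.87, 0.00 and -1.06 in CE and at 2.93, 2.81 and 1.41 in Veh. Of these groups only the CE mice were low, and the E2 and Veh mice overlapped. At the floor of Pla2g4f, below the CE mice, were 4 of the 15 mice, all from the groups of the series not compared here. E2 minus CE was 2.08 ± 0.54 (FDR 0.28), and CE minus Veh was -3.03 (FDR 0.035), while E2 minus Veh was -0.94 (FDR 0.37). Slc34a2, a sodium-phosphate cotransporter, had, after A1bg, the largest difference towards E2 of the genes taken by the naming rule, 3.09 ± 0.86, with -0.05, 1.42 and -0.83 in E2 and -1.52, -2.41 and -4.79 in CE. Col8a1, a short-chain collagen, differed by 1.83 ± 0.59, as 3 CE values from -2.91 to -0.80 lay below the E2 values from -0.71 to 0.75. The separation was narrow, and the difference was 1.28 without CE mouse 3. Tspan8, a tetraspanin, Mab21l2, a developmental factor, and Aox3l1, an aldehyde oxidase with 9 mice at its floor, differed by 2.21, 2.19 and 1.39, and by 2.36, 2.65 and 1.34 without CE mouse 3. Tsku, a secreted liver protein, differed by 1.64 and by 2.06 without CE mouse 3, but E2 mouse 5, at -0.82, was near CE mouse 3, at -0.88. Hspa1a, an inducible heat shock protein, was higher in E2 by 1.40, and its near copy Hspa1b by 1.28. Krt7, a keratin of bile duct cells, differed by 1.67 and the 6 cholangiocyte markers by a median of 0.45.

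Of 9 listed markers of mesothelium, the cells covering the surface of the liver, 5 were in the table, all with positive differences, and 1 of the 5, Upk3b, passed an unadjusted p under 0.05. At least 2 mice were at the floor in 4 of the 5. Their median difference was 1.13 (1.07 without CE mouse 3). Upk3b, a uroplakin of mesothelium, was at 2.31, 1.27 and 0.77 in E2, -0.32, -0.82 and 0.34 in CE and -1.99, -1.07 and -0.99 in Veh, and E2 and CE differed by 1.71 ± 0.62 (1.69 without CE mouse 3). The mean over the 5 markers was 0.30 to 1.23 in the E2 mice and -0.68 to -0.18 in the CE mice, and its part in the other results was not tested. More such cells and more RNA per cell cannot be told apart in bulk tissue.

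Among early response genes, which cells switch on within minutes of a signal, the values of Egr1 and Dusp2 were higher in all CE than in all E2 mice. Of 32 listed, 11 were in the table, 7 negative and 4 positive, with a median of -0.82 that was -0.32 without CE mouse 3. Egr1 and Dusp2 passed an unadjusted p under 0.05 with and without that mouse. Egr1, a zinc finger factor induced by growth signals, was at -1.68, -1.19 and 1.01 in the E2 mice and 2.08, 1.36 and 2.51 in the CE mice, with Veh between -1.77 and 0.00. The difference was -2.60 ± 0.68 (FDR 0.31), and -2.55 without CE mouse 3. E2 mouse 5 was the nearest of the E2 mice to the CE range. Dusp2, a phosphatase of MAP kinases, was at -0.08, 0.02 and -1.98 in E2 and 0.92, 1.16 and 1.93 in CE, a difference of -2.02 ± 0.69. It was -2.23 without CE mouse 3, but -1.37 without E2 mouse 5, where it no longer passed. Junb, an AP-1 subunit, was at -0.71, 0.00 and -0.32 in E2 and 0.73, 0.38 and 0.89 in CE, a difference of -1.01. Fos differed by -1.25, with E2 mouse 5, at -0.05, and CE mouse 6, at -0.03, almost level. Dusp1, of the same phosphatase family as Dusp2, had the opposite sign, 0.84, and Zfp36 and Jund were near 0, at 0.13 and 0.09. Clock genes, which cycle over the day, had a median of -0.27 over 8 in the table, and none of the 8 passed an unadjusted p under 0.05.

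**Figure D2:**
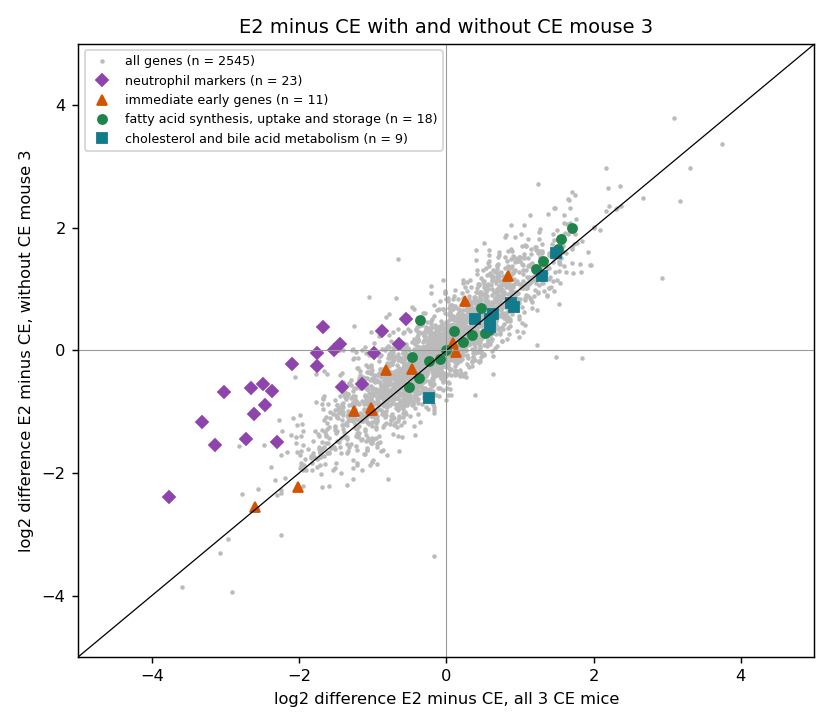
Log2 difference E2 minus CE with all 3 CE mice (x axis) against the same without CE mouse 3 (y axis) for 2545 genes (grey), with neutrophil markers (purple diamonds), immediate early genes (orange triangles), fatty acid genes (green circles) and cholesterol genes (teal squares). The neutrophil markers lie off the line of equality, with a median of -2.10 on the x axis and -0.55 on the y axis, while Fasn, Elovl6, Mvd, Egr1 and Dusp2 stay near it.

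Neutrophil-lineage genes gave the lowest median of all lists and rested largely on CE mouse 3. Of 37 listed, 23 were in the table and all 23 were negative, with a median of -2.10. At least 2 mice were at the floor in 15 of them, and the median of the other 8 was -1.57. More than 2-fold, 19 were higher in CE (15.1% of all genes), and 9 of these passed an unadjusted p under 0.05 (5.70% of all genes). Without CE mouse 3 the median was -0.55, 6 remained above 2-fold and none passed. CE mouse 3 was the highest of the 15 mice in 20 of the 23. Mpo, the myeloperoxidase of primary granules, was at 7.69 in CE mouse 3, 0.00 in CE mouse 6, 2.47 in CE mouse 7 and 0.00 to 0.19 in the E2 mice, with 10 of the 15 mice at its floor. S100a8, a calcium-binding protein abundant in neutrophils, was at 5.66 in CE mouse 3, 0.37 and 1.49 in the other CE mice and -1.44 to 1.13 in the E2 mice. In both genes CE mouse 6 lay within the E2 range and CE mouse 7 above it. The mean over the 23 markers was 4.81 in CE mouse 3, 0.01 and 0.73 in CE mice 6 and 7, and -0.60, 0.93 and -0.87 in E2 mice 3, 4 and 5. Chi3l3, a chitinase-like protein of myeloid cells, Elane, neutrophil elastase, and Chi3l1 were the exceptions in that all 3 CE mice stayed above the E2 mice. Chi3l3 was at 5.57, 0.99 and 1.84 in CE and at -1.08, 0.34 and -2.17 in E2, and its difference was -3.77 with all mice and -2.38 without CE mouse 3. For Elane the differences were -3.15 and -1.54, and for Chi3l1 -2.31 and -1.50.

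**Figure D3:**
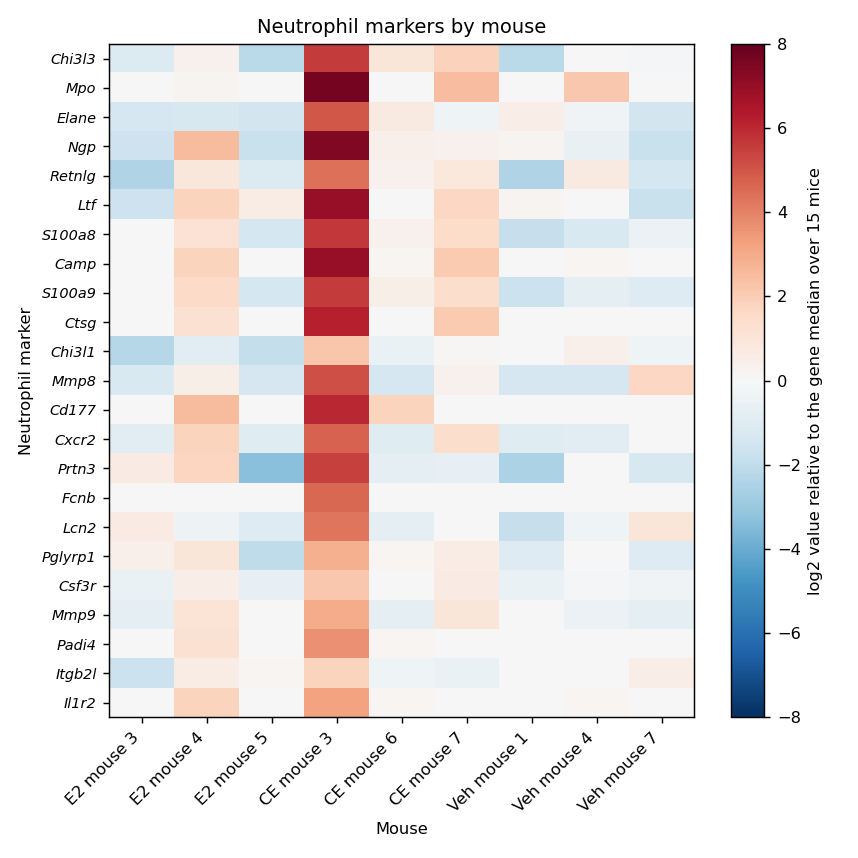
Colour shows the log2 value relative to the gene's median over 15 mice for 23 neutrophil markers (rows) in the E2, CE and Veh mice (columns). CE mouse 3 is red throughout, with a mean of 4.81, whereas the means of the other 5 E2 and CE mice lie between -0.87 and 0.93.

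Acute phase and blood genes moved with the same mouse. The 15 acute phase and inflammation genes in the table were all negative, with a median of -0.75 that was -0.15 without CE mouse 3. Saa1, a serum amyloid protein, was at 4.84 in CE mouse 3 and at -1.32 and -0.54 in the other CE mice, below or within the E2 range of -0.94 to 0.99. The difference of -1.05 for Saa1 became 0.87 without CE mouse 3, and neither passed an unadjusted p under 0.05. Complement and coagulation genes went from a median of -0.72 to -0.16, cell cycle genes from -0.53 to -0.12 and macrophage and Kupffer cell markers from -0.58 to 0.11. Among the last, Marco, a scavenger receptor, differed by -2.12 and by -1.39 without that mouse. In the cell cycle list, CE mouse 3 was the highest of 15 in 8 of 9 genes. Whether these lists and the neutrophil markers share a source in CE mouse 3 was not tested.

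B cell genes did not rest on CE mouse 3, and erythroid genes did in part. The 7 B and plasma cell markers in the table were all negative, with medians of -0.86 with and -1.04 without it, and their mean was 0.73, 0.79 and 0.95 in the CE mice and -0.07, 0.25 and -0.39 in the E2 mice. Cr2, the complement receptor of B cells, was at -1.01, -0.34 and -0.78 in E2 and 1.02, 1.54 and 0.58 in CE, a difference of -1.76 ± 0.65 (-1.77 without CE mouse 3). The 11 erythroid markers were likewise all negative, with medians of -0.86 and -0.53, and CE mouse 3 was the highest of 15 in 8 of them. Their mean was 1.54, 1.14 and -0.10 in the CE mice and 0.01, -0.64 and 0.51 in the E2 mice, so that CE mouse 7 lay within the E2 range. Trim10, expressed in red cell precursors, differed by -1.88 and by -1.62 without CE mouse 3, with 6 mice at its floor and CE mouse 7, at 0.36, below E2 mouse 4, at 0.44. T and NK cell markers had a median of -0.65 over 8 in the table, and none passed an unadjusted p under 0.05.

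Several further genes higher in CE kept their difference when CE mouse 3 was left out. Kifc5b, a kinesin motor, was at -2.09, -0.44 and -1.33 in E2 and 1.48, 1.22 and 0.43 in CE, a difference of -2.33 ± 0.53 (FDR 0.20) and of -2.11 without CE mouse 3. The Veh mice, at -0.39 to 0.47, lay above the E2 mice and overlapped CE mouse 7. Nfe2l3, a stress-response transcription factor, was at -1.97, -1.84 and -1.00 in E2 and 0.17, 0.26 and 0.21 in CE, a difference of -1.82 with all mice and -1.84 without CE mouse 3. P2rx3, an ATP-gated channel, Rufy4, linked to autophagy, Rhebl1, a small GTPase, Napsa, an aspartic protease, Pstpip1, an adaptor of blood cells, Gpr174, a lymphocyte receptor, and Adamts6, a matrix protease, differed by -1.69 to -2.25 with all mice and by -1.61 to -2.32 without CE mouse 3. In Rufy4 the CE mice lay close together, at -0.08 to 0.06, and the E2 mice spread from -3.41 to -0.76.

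The Xlr genes form the X-linked lymphocyte-regulated family, and 6 of them were in the table. At an unadjusted p under 0.05 and above 2-fold, 4 were higher in CE, Xlr3a, Xlr3b, Xlr3c and Xlr4a. Without CE mouse 3, 2 of them still were, Xlr3b and Xlr4a. The shares over all genes were 5.70% and 3.58%. Xlr3b was at -1.09, -3.32 and -1.68 in E2 and 0.14, -0.02 and -0.26 in CE, a difference of -1.98 ± 0.62. Xlr4a was at -0.92, -1.09 and -2.05 in E2 and 2.29, 0.00 and 1.99 in CE, a difference of -2.78 ± 0.89. The copies are close, with 99.2% identity between the transcripts of Xlr3b and Xlr3c, so these rows may share reads. The family was described together after its values were seen.

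Some genes in which both E2 and CE mice lay apart from Veh showed no difference between them that 3 mice a group could detect, with wide intervals. A distance above 2-fold between Veh and at least 1 treatment was common to all 2545 genes of the table. Cfd, complement factor D or adipsin, was at -1.48, -1.97 and -0.83 in E2, -0.43, -3.00 and 0.53 in CE and 3.15 to 4.89 in Veh. E2 minus CE was -0.46, with a 95% interval from -2.74 to 1.82. Gsta1, a glutathione S-transferase, was at -1.06, -1.05 and -1.29 in E2, -1.06, -0.79 and 0.00 in CE and 1.33 to 2.53 in Veh, and its difference was -0.52 (-1.55 to 0.51). Mogat1, which makes diacylglycerol in fatty liver, differed by 0.35 (-0.71 to 1.41). Pparg, a master factor of fat storage, was nearer to Veh, by -1.30 in E2 and -0.80 in CE, neither of which passed. Its E2 and CE mice differed by -0.51 (-1.44 to 0.43), with all CE above all E2 mice. Enho, which encodes the peptide adropin, was at 0.85, 0.58 and 0.00 in E2 and 2.10, 1.03 and 1.36 in CE, above Veh at -3.09 to -1.56, and differed by -1.02 (-2.24 to 0.20). Krt23, a keratin induced in fatty liver, differed by -0.20 (-1.96 to 1.55). Each interval includes 0, and those of Cfd and Enho also include a 4-fold difference. Stk32c, a kinase that passed in E2 against Veh (-2.74, FDR 0.039), was at -1.57, -1.57 and -0.82 in E2 and -0.65, 0.59 and 0.12 in CE, a difference of -1.34 ± 0.53 that was -1.68 without CE mouse 3.

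**Figure D4:**
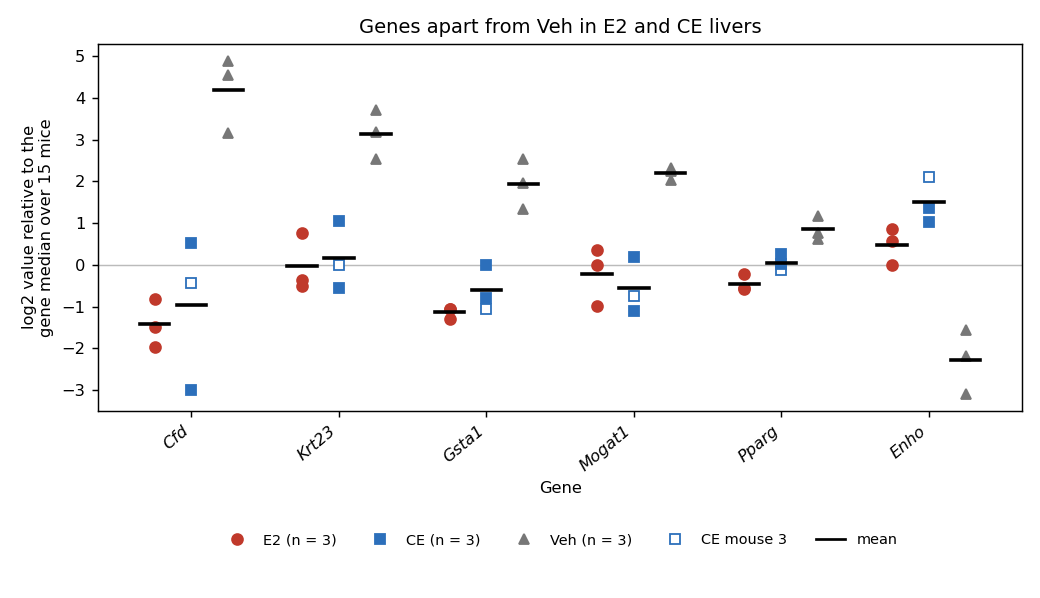
Log2 value relative to the gene's median over 15 mice (y axis) of 6 genes (x axis) in each E2 (red circles), CE (blue squares, CE mouse 3 open) and Veh (grey triangles) mouse, with bars at the means. In all 6 the Veh mice lie apart from the E2 and CE mice, and the E2 and CE mice of Cfd, Krt23, Gsta1 and Mogat1 overlap.

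The remaining lists held little. Solute carriers, 60 in the table, had a median of -0.20, with Slc34a2 and Slc13a2, a citrate transporter (1.42), past an unadjusted p under 0.05 towards E2 and Slc2a3, a glucose transporter (-1.34), towards CE. Without CE mouse 3 these differences were 3.79, 1.03 and -0.72, and Slc13a2, in which E2 and CE mice overlapped, and Slc2a3 no longer passed. Cytochrome P450 genes, 30 in the table, had a median of 0.28 with 21 positive, and 1 of them, Cyp3a44, passed an unadjusted p under 0.05 above 2-fold. Stress genes, 9 in the table, had a median of -0.81 (-0.76 without CE mouse 3), with 7 negative and 2 positive, Hspa1a and Hspa1b. With all mice, 4 were more than 2-fold higher in CE, as were 385 of all 2545 genes. Without CE mouse 3 the number was again 4, with Gdf15 in place of Mt1, beside 281 of all genes. Trib3 and Chac1 differed by -1.4 and -1.5. Without CE mouse 3 they differed by -2.0 and -1.5, and Trib3 then passed an unadjusted p under 0.05. The metallothionein gene Mt2, at 3.63 in CE mouse 3, differed by -2.48 and by -1.55 without that mouse. It passed an unadjusted p under 0.05 in neither case. Hepatokines, 10 in the table, had a median of -0.07, and Fst, follistatin, differed by -1.34 and -1.08 without CE mouse 3. Growth hormone and STAT5 signaling genes, 5 of 19 in the table, were all negative with a median of -0.65, and matrix genes, 10 in the table, had a median of 0.00. Adipocyte and exocrine pancreas markers had medians of 0.00, and 8 of 12 and 20 of 21 of them had at least 2 mice at the floor. Interferon response genes, stellate cell markers, endothelial markers and muscle markers had 1 or 2 members each in the table, and none passed an unadjusted p under 0.05.

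**Figure D5:**
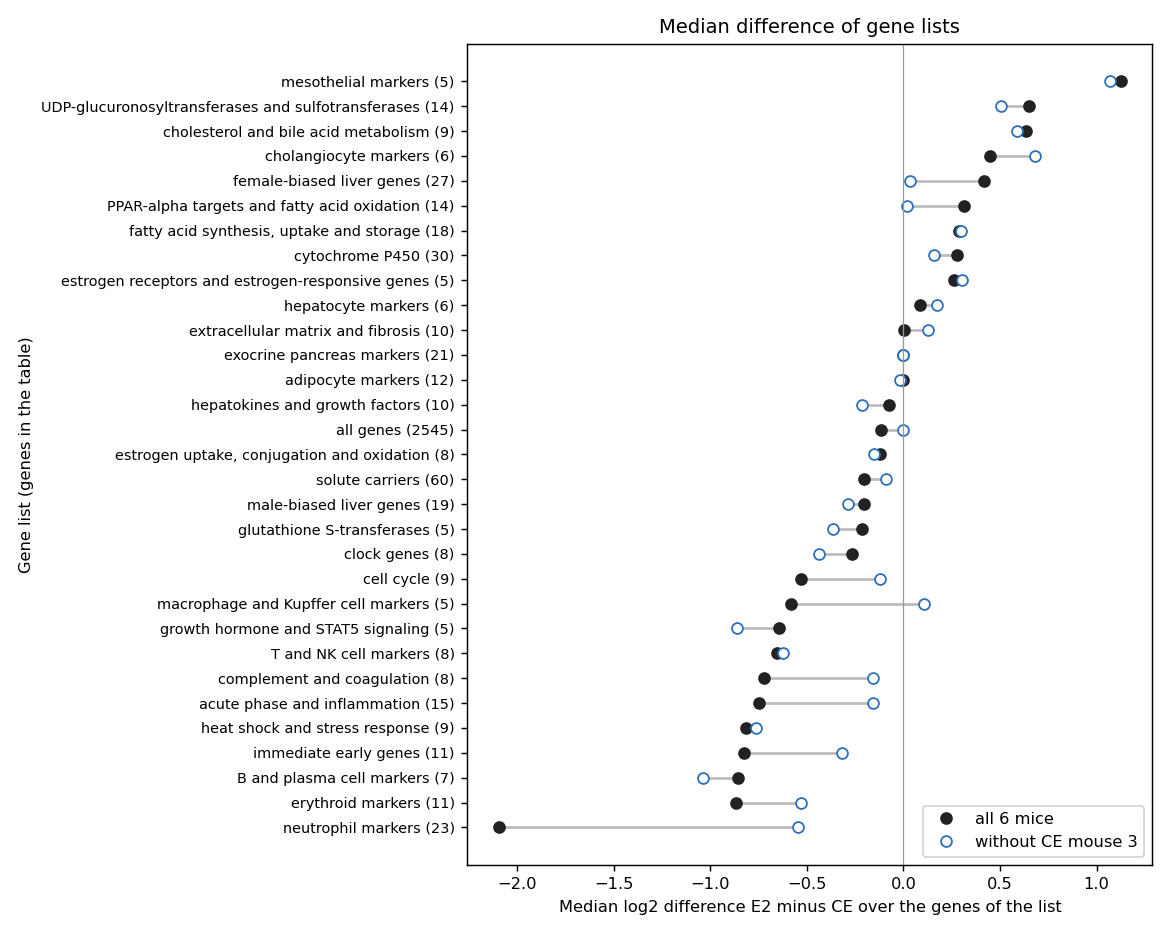
Median log2 difference E2 minus CE (x axis) of each gene list with at least 5 genes in the table (y axis, number of genes in parentheses), with all 6 mice (black) and without CE mouse 3 (open blue). Neutrophil markers move from -2.10 to -0.55 and female-biased liver genes from 0.42 to 0.03, whereas fatty acid genes stay at 0.29 and 0.30.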

How the data were processed

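Liver RNA-seq from 15 ovariectomized mice in 5 groups of 3 was used, and the E2 and CE mice were compared. Reads, single-end per the study, were mapped by the authors with TopHat, counted per gene in StrandNGS and normalized with the DESeq algorithm, and the deposited values are log2 relative to each gene's median, which was 0 in all 2545 genes. The labels also mention paired ends and 2 samples per group. Nothing gives litters or batches. All columns were matched to mice by name, and no pair of mice had identical values. The log2 values were used as deposited, without pseudocount or filter. A model of 5 groups was fitted with limma 3.58.1 (R 4.3.3), with Benjamini-Hochberg adjustment over the 2545 genes. An unadjusted p is from the same fit. The test was run on simulated data with independent normal noise. These had neither the floor nor the selection of the table, so that check does not cover them. Named genes were those called, the 12 per direction with the smallest p among genes with recognised symbols, without overlap and with at most 1 of the 6 mice at the gene's lowest value, list members with an unadjusted p under 0.05 or the extreme difference, and genes called against Veh. Members and lists were chosen with earlier results of these data known. Genes that are given only as list members were chosen after their values were seen. Positions came from GENCODE M21 and RefSeq (GRCm38) by symbol. Alternatives are given at the end.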

Additional observations from a re-analysis of the deposited data

How the results depend on the processing

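No paired analysis was possible because the E2 and CE mice share only number 3 in their labels. The 1 gene called higher in E2, A1bg, remained called under quantile normalization, centring of each mouse, the filters on low values and robust hyperparameters. With only the 6 mice, with E2, CE and Veh, with a mean-variance trend or with no shrinkage, 0 genes were called higher in E2. The FDR of A1bg was then 0.157, 0.148, 0.0502 and 0.187. Leaving out 1 mouse gave 0 to 1 genes higher in E2 and 0 to 1 higher in CE, the latter AC123644.1 without E2 mouse 4. At an unadjusted p, 86 and 145 genes were higher in E2 and CE, and quantile normalization gave 144 in E2. Keeping genes with fewer than 2 mice at the lowest value left 57 and 85, and keeping genes with no E2 or CE mouse at the lowest value left 33 and 35, out of 1500 and 1154 genes tested. The cause of the smaller shares under the second filter was not tested. Leaving out 1 mouse gave 67 to 109 in E2 and 91 to 197 in CE, with the extremes on the E2 side without CE mouse 6 and CE mouse 3, and on the CE side without CE mouse 3 and CE mouse 6. The distance between the treatments stayed larger than within them in all alternatives, from 0.04 to 0.15 when 1 mouse was left out, with an exact permutation p of 0.1 to 0.5, the highest without E2 mouse 3.

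Of 872 refits of the named genes (both scalings, the filter on fewer than 2 mice at the lowest value, the fit of the 6 mice alone, and each mouse left out), 856 kept direction and call, 6 lost the call of A1bg and 10 changed sign, all when 1 mouse was left out. For the 88 named genes without a call, this means only the same sign and again no call. The size was free to change, as in the neutrophil marker Camp, at -2.49 with all mice and -0.54 without CE mouse 3. Over these refits Lcn2 ranged from -2.41 to 0.11 (positive without CE mouse 3), Cfd from -1.48 to 0.29 (CE mouse 7), Cela2a from -0.845 to 0.30 (E2 mouse 4), Gbp10 from -0.60 to 0.020 (E2 mouse 3), Cyp46a1 from -0.78 to 0.14 (E2 mouse 3, CE mouse 6 or CE mouse 7), Krt23 from -0.60 to 0.24 (E2 mouse 5 or CE mouse 7) and Acta2 from -0.023 (CE mouse 6) to 1.30. Of 136 list medians, 19 moved by more than the spread between mice. The cause was not tested. Read depth is not in the table, so what it limits is unknown.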
